A study of Mus musculus with 8 samples.

Results

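The replication-dependent histone genes were followed in cultured mouse colon fibroblasts that had or had not been irradiated. Members were selected on their names alone, as the genes whose GENCODE M21 symbol begins with Hist1h, Hist2h, Hist3h or Hist4h, and 70 of the 55573 listed genes met that rule. No measured value entered the rule, but the family was put forward with results of this same comparison known, so the counts and p-values below describe it and are no independent support for its direction. The members comprised 6 H1, 20 H2A, 19 H2B, 12 H3 and 13 H4 genes. By gene cluster, 56 belonged to Hist1 on chromosome 13, 10 to Hist2 on chromosome 3, 3 to Hist3 on chromosome 11 and 1 to Hist4 on chromosome 6.

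Both groups were C57BL6/J colon fibroblasts, cultured on tissue culture plates in Advanced DMEM F12 with 10% FBS, and both received APTKA conditioned medium, a name that the labels leave unexpanded. The irradiated group had 4 libraries from cells that were given 3 fractions of 2 Gy, and the non-irradiated group had 4 libraries from cells given none. Collection was 72 h after the first dose. No group without conditioned medium is used here, so every value below belongs to cells already exposed to it, and the labels do not say whether the samples came from separate animals or separate cultures.

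Core histones H2A, H2B, H3 and H4 form the protein spool of the nucleosome, and linker histone H1 binds the DNA that enters and leaves it. The genes studied here are transcribed mostly in S phase, when new DNA has to be packaged, and they lie in clusters in which H2A and H2B genes often face away from each other across a shared promoter. Most of their mRNAs end in a conserved stem-loop bound by the protein SLBP and carry no poly(A) tail. RNA selected for poly(A) therefore holds only part of them, and some members are also known to give longer, polyadenylated transcripts that run past the stem-loop.

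The stem-loop was found in the annotated 3′ UTR of 43 of the 67 members with a coding transcript. A match needed an exact base pattern with a fully paired stem, in the coding transcript with the longest 3′ UTR. Members without a match may still hold a stem-loop that differs from the pattern, lies past the annotated end or lies in an intron. Only spliced transcripts were searched. The examples below were chosen to show the forms of the stem-loop in the genes that the results turn on, with the stem and loop in capitals and 5 bases of flank in lower case on either side, 5′ to 3′, read from GENCODE M21 transcripts on mm10. They are Hist1h2ac (chr13:23683472-23683497, minus strand) and Hist3h2a (chr11:58955167-58955192, plus strand), which were higher after irradiation, Hist1h1c (chr13:23739507-23739532, plus strand), the member with the most counts, and Hist1h3c (chr13:23745042-23745067, minus strand), Hist1h4d (chr13:23581945-23581970, plus strand) and Hist1h4b (chr13:23757361-23757386, plus strand), which were lower.
Hist1h2ac: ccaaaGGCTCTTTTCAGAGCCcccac
Hist3h2a: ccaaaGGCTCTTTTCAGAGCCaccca
Hist1h1c: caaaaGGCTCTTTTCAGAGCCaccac
Hist1h3c: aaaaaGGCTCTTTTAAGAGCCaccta
Hist1h4d: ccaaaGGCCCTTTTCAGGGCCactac
Hist1h4b: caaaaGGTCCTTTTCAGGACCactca
The capitals of the first 3 are the same letters, and 25 members carried that form, among them genes that were higher, lower and not called. The form of Hist1h4d was carried by 7 members and the form of Hist1h4b by 2, and all 9 were H4 genes.

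Total counts ran from 30203137 to 36497990 in the irradiated libraries and from 28731227 to 37157216 in the non-irradiated libraries. All 11 fibroblast markers averaged at least 1 CPM, with a summed level of 14783 to 16103 CPM in irradiated and 16226 to 19056 CPM in non-irradiated libraries, and the epithelial list had 0 of 7 and the glial list 0 of 3 at that level. The leukocyte list had 1 of 6 (Cd68), the endothelial list 1 of 5 (Kdr) and the muscle list 2 of 3. Irradiated libraries I and II stood apart by mitochondrial rRNA, at 15129 and 15263 CPM, against 4358 and 5934 CPM in irradiated III and IV and 4178 to 5915 CPM in the non-irradiated libraries. Their summed histone level was also the lowest, and results that depend on them are given without them.

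The histone mRNAs counted in the poly(A) libraries were, as a family, less abundant after irradiation. Members together held 1168, 1160, 1396 and 1261 CPM (counts scaled to library size with TMM factors) in irradiated libraries I to IV, against 1606, 1476, 1586 and 1419 CPM in non-irradiated libraries I to IV. The groups did not overlap. The means of 1246 ± 110 and 1522 ± 89.1 CPM (SD, n = 4 each) differed by −18.1%, a log2 ratio of −0.29, and the log2 ratio was −0.20 without irradiated I and II. In bulk RNA of this kind, fewer cells that transcribe a gene and less RNA per cell cannot be told apart.

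Of the 70 members, 48 had enough counts to be tested, and 24 of these fell, 3 rose and 21 were not called. Calls needed an adjusted p below 0.05 in edgeR's quasi-likelihood test, with Benjamini-Hochberg adjustment over all 15259 genes tested, of which 4.15% were called lower and 2.59% higher. The median log2 fold change of the tested members was −0.36, with 43 below 0 and 5 above, beside 0.00 over all genes tested. All 4 irradiated libraries lay below all 4 non-irradiated ones for 22 tested members and above them for 2, beside 8.08% and 6.14% of all genes tested. Without irradiated I and II, 14 members were called lower and 3 higher, with 1.88% and 1.92% of all genes called in that fit.

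**Figure D1:**
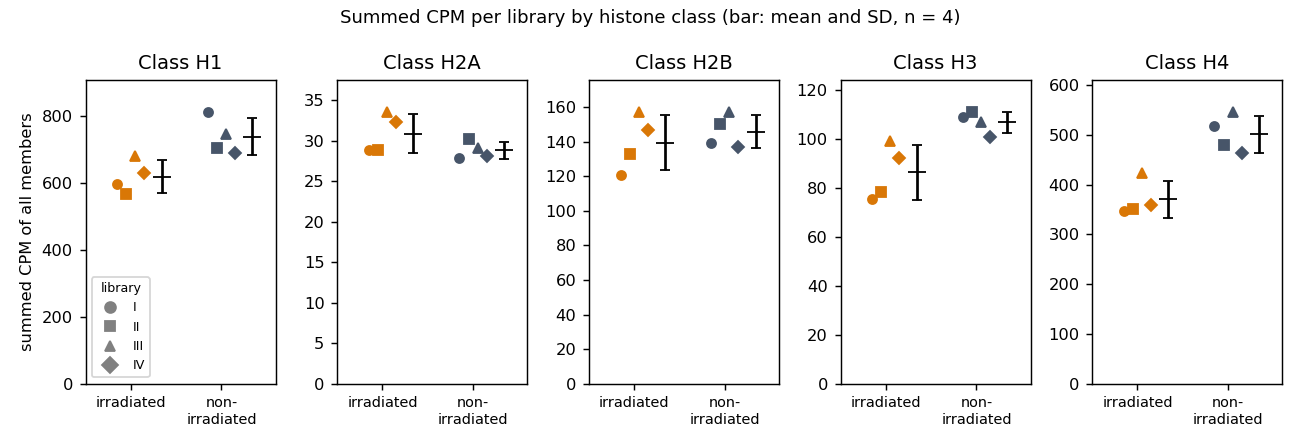
Summed CPM of all members of each histone class in every library, irradiated libraries on the left and non-irradiated libraries on the right of each panel; markers are libraries I to IV and the bar is the mean and SD of 4. H1, H3 and H4 separate the groups, whereas the H2A and H2B sums overlap.

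The class sums differed in their ratios. H4, whose genes encode nearly the same protein throughout, had the lowest, at 347, 351, 424 and 358 CPM in irradiated libraries against 517, 479, 545 and 463 CPM in non-irradiated libraries (log2 ratio −0.44). H3 summed to 75.5, 78.5, 99.3 and 92.4 CPM in irradiated libraries and 109, 111, 107 and 101 CPM in non-irradiated libraries (−0.31), and the log2 ratio was −0.16 without irradiated I and II. H1 summed to 597, 568, 682 and 631 CPM in irradiated libraries and 812, 706, 748 and 690 CPM in non-irradiated libraries (−0.25). In each of these classes every irradiated library was below every non-irradiated one.

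H2A and H2B, the dimer of the core particle, overlapped between the groups as class sums. H2A summed to 30.9 ± 2.40 CPM in irradiated and 28.8 ± 1.01 CPM in non-irradiated libraries (SD, n = 4; log2 ratio 0.10, and 0.19 without irradiated I and II). H2B summed to 139 ± 15.9 CPM in irradiated and 146 ± 9.24 CPM in non-irradiated libraries (log2 ratio −0.06, and 0.06 without irradiated I and II). Between them these sums contain the 3 genes that rose, and the sums without those genes were formed after their values were seen. Without Hist3h2a and Hist1h2ac, the H2A sum was 13.7 ± 2.01 CPM in irradiated and 17.3 ± 0.958 CPM in non-irradiated libraries, a log2 ratio of −0.34 with overlapping groups. Without Hist1h2bc, the H2B sum was 83.6 ± 8.21 CPM in irradiated and 103 ± 6.0 CPM in non-irradiated libraries, a log2 ratio of −0.30 with no overlap.

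Shares of the classes in the family's CPM followed from these sums. H4 genes took 29.7% ± 0.892 of all histone CPM in irradiated and 32.9% ± 0.978 in non-irradiated libraries (SD, n = 4). H2B took 11.2% ± 0.591 in irradiated and 9.6% ± 0.650 in non-irradiated libraries, and H2A 2.48% ± 0.0681 in irradiated and 1.90% ± 0.139 in non-irradiated libraries. H1 took 49.8% ± 1.04 in irradiated and 48.6% ± 1.47 in non-irradiated libraries, a difference within the spread. H3 took 6.92% ± 0.381 in irradiated and 7.05% ± 0.357 in non-irradiated libraries, also within the spread. Exons of most H2A genes overlap an annotated miRNA gene on the opposite strand. That overlap covers 29.2% of Hist1h2ab exons and 27.1% of Hist2h2ac exons, but 6.4% for Hist3h2a and 5.6% for Hist1h2ac. The strand setting of the counting is not given, and whether reads there were left uncounted was not tested.

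**Figure D2:**
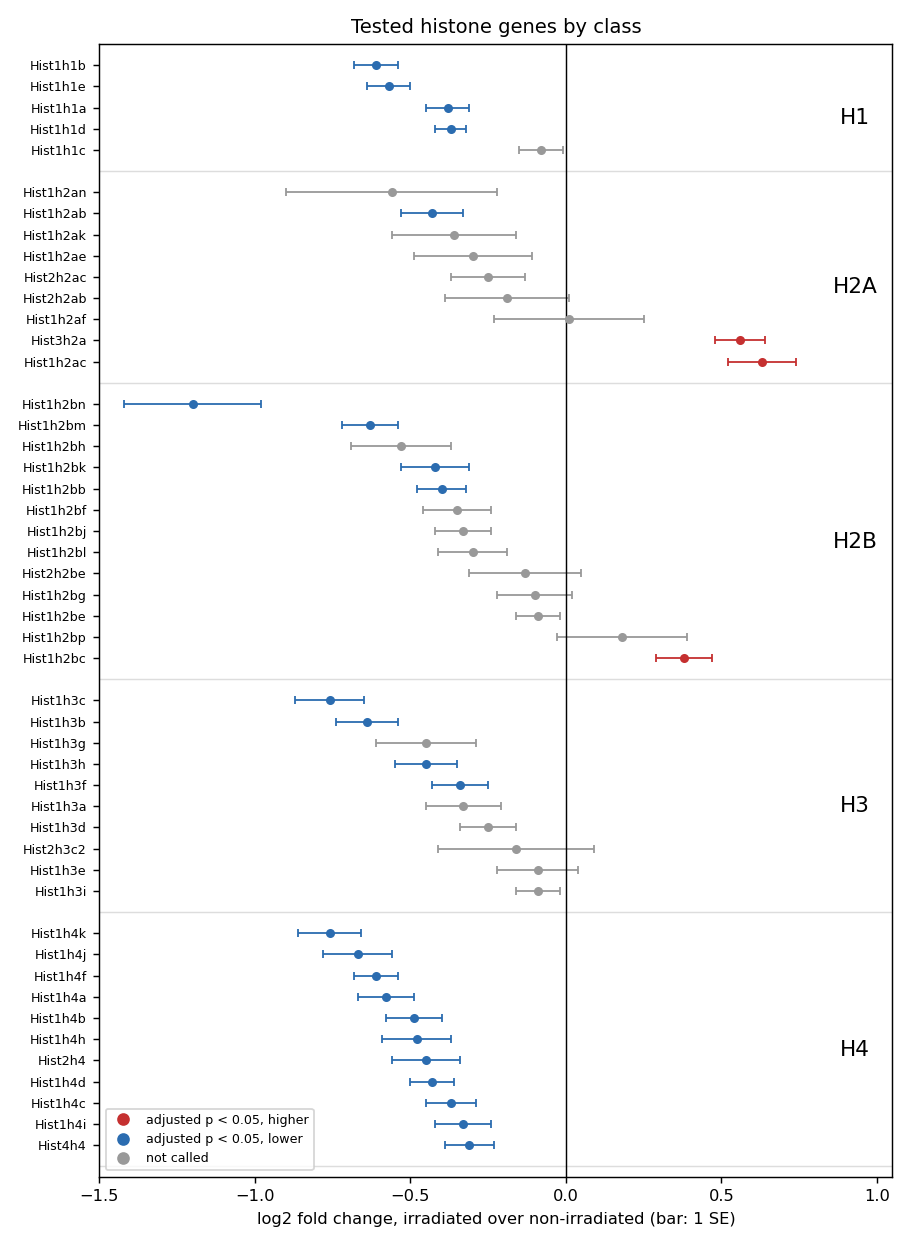
Log2 fold change of the 48 tested members, irradiated over non-irradiated, by class, with 1 SE as the bar; red marks members called higher, blue members called lower and grey members not called. All 11 tested H4 genes lie below 0 and are called, and the 3 called higher are Hist1h2ac, Hist3h2a and Hist1h2bc.

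H1 is the linker histone, and 4 of its 5 tested genes fell. Hist1h1e (chr13:23620629-23622558) had 125, 121, 142 and 127 CPM in irradiated libraries against 220, 174, 188 and 184 CPM in non-irradiated libraries. The groups did not overlap (log2 fold change −0.57, SE 0.07, adjusted p = 0.000169). Hist1h1b had 14.3, 11.8, 13.9 and 12.6 CPM in irradiated libraries against 20.7, 19.4, 18.8 and 21.3 CPM in non-irradiated libraries (−0.61, SE 0.07, adjusted p = 0.000168), again with no overlap. Hist1h1d averaged 77.7 ± 5.48 CPM in irradiated and 101 ± 3.87 CPM in non-irradiated libraries (−0.37). Hist1h1a averaged 15.7 ± 0.965 CPM in irradiated and 20.4 ± 1.94 CPM in non-irradiated libraries (−0.38), a call that was lost without irradiated I and II (adjusted p = 0.0742).

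Hist1h1c (chr13:23738808-23740367), which supplied 58.2% of H1 CPM and more counts than any other member, was the exception in its class. It had 368, 347, 424 and 398 CPM in irradiated libraries against 454, 383, 423 and 366 CPM in non-irradiated libraries. The groups overlapped (−0.08, SE 0.07, adjusted p = 0.553), and the log2 fold change was 0.01 without irradiated I and II. The other 5 H1 genes together had 229, 221, 258 and 234 CPM in irradiated libraries against 359, 323, 325 and 324 CPM in non-irradiated libraries, a log2 ratio of −0.50. That sum was formed after the values were seen, by leaving out the tested H1 gene that was not called, so its lower ratio follows from the choice. The remaining H1 gene, Hist1h1t, known for its expression in testis, had 23 counts in all libraries together and was not tested.

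Of the H2A genes, 9 were tested; 1 fell, 2 rose and 6 were not called. Hist3h2a (chr11:58954685-58956830) had 12.8, 13.3, 13.1 and 14.3 CPM in irradiated libraries against 7.88, 10.4, 8.55 and 9.57 CPM in non-irradiated libraries. All irradiated libraries were higher (log2 fold change 0.56, SE 0.08, adjusted p = 0.00111). Hist1h2ac (chr13:23681467-23683948) had 3.70, 3.57, 3.99 and 3.98 CPM in irradiated libraries against 2.40, 2.19, 2.52 and 2.71 CPM in non-irradiated libraries, also without overlap (0.63, SE 0.11, adjusted p = 0.0024). Both calls held in each of the 18 alternative analyses, with adjusted p up to 0.00818 for Hist3h2a and 0.0155 for Hist1h2ac. Exons of Hist3h2a share 708 bases with Trim17 on the same strand, and Trim17 itself averaged 3.91 ± 0.301 CPM in irradiated and 3.21 ± 0.292 CPM in non-irradiated libraries (adjusted p = 0.134).

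Hist1h2ab was the H2A gene that fell, with 4.56, 4.75, 5.64 and 5.76 CPM in irradiated libraries against 7.42, 7.27, 6.60 and 6.52 CPM in non-irradiated libraries (−0.43, SE 0.10, adjusted p = 0.0171). Omitting irradiated I, irradiated II or non-irradiated I ended the call, as did omitting irradiated I and II together (adjusted p = 0.185). Hist2h2ac averaged 4.15 ± 0.658 CPM in irradiated and 4.92 ± 0.497 CPM in non-irradiated libraries (−0.25, adjusted p = 0.261). Hist1h2ak averaged 1.51 ± 0.456 CPM in irradiated and 1.93 ± 0.357 CPM in non-irradiated libraries (−0.36, adjusted p = 0.337). Log2 fold changes of the other uncalled H2A genes, all near or under 1 CPM in both groups, were −0.56 for Hist1h2an, −0.30 for Hist1h2ae, −0.19 for Hist2h2ab and 0.01 for Hist1h2af.

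Of the H2B genes, 13 were tested; 4 fell, 1 rose and 8 were not called. Hist1h2bc (chr13:23684199-23692908), the H2B gene with the most counts, had 47.2, 51.9, 64.4 and 59.7 CPM in irradiated libraries against 39.2, 41.9, 48.9 and 41.2 CPM in non-irradiated libraries. One irradiated library lay below the highest non-irradiated one (log2 fold change 0.38, SE 0.09, adjusted p = 0.0207). Leaving out irradiated III, irradiated IV, non-irradiated I or non-irradiated IV ended the call, with adjusted p up to 0.0733. Without irradiated I and II, the 2 libraries with the lower values, its log2 fold change was 0.53.

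Hist1h2bn had the largest fall of any tested member, with 0.939, 0.907, 0.743 and 0.724 CPM in irradiated libraries against 2.72, 1.33, 1.97 and 1.67 CPM in non-irradiated libraries (−1.20, SE 0.22, adjusted p = 0.00484). Its non-irradiated values spread over a wide range, yet the groups did not overlap. It had 22 to 34 counts in each irradiated library, and 86.4% of the 50-base windows of its transcript also occurred in other members. Hist1h2bm averaged 6.29 ± 0.617 CPM in irradiated and 9.71 ± 0.595 CPM in non-irradiated libraries (−0.63, SE 0.09, adjusted p = 0.0005), and Hist1h2bb averaged 15.5 ± 0.831 CPM in irradiated and 20.5 ± 2.34 CPM in non-irradiated libraries (−0.40, SE 0.08, adjusted p = 0.00715, and 0.0874 without irradiated I and II). The fourth, Hist1h2bk, averaged 7.60 ± 1.11 CPM in irradiated and 10.1 ± 1.27 CPM in non-irradiated libraries (−0.42), and its adjusted p of 0.0444 passed the threshold in 2 of the 8 analyses that left out a library and was 0.258 without irradiated I and II.

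Among the H2B genes not called, Hist1h2be averaged 21.4 ± 1.39 CPM in irradiated and 22.9 ± 2.26 CPM in non-irradiated libraries (−0.09), and Hist1h2bg averaged 11.7 ± 2.29 CPM in irradiated and 12.5 ± 1.11 CPM in non-irradiated libraries (−0.10, and 0.09 without irradiated I and II). Hist1h2be shares 496 exon bases with Hist1h1e on the same strand. Hist1h2bh (−0.53, adjusted p = 0.0608), Hist1h2bj (−0.33, adjusted p = 0.0518) and Hist1h2bf (−0.35, adjusted p = 0.0771) missed the threshold although no irradiated library reached the non-irradiated range. Hist1h2bl had a log2 fold change of −0.30, Hist2h2be of −0.13 and Hist1h2bp of 0.18, with overlapping groups.

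Of the H3 genes, 10 were tested; 4 fell and 6 were not called. Hist1h3c had 3.76, 3.93, 4.54 and 4.28 CPM in irradiated libraries against 5.96, 8.22, 6.76 and 7.02 CPM in non-irradiated libraries (−0.76, SE 0.11, adjusted p = 0.000635). Hist1h3b had 7.60, 7.08, 9.74 and 7.74 CPM in irradiated libraries against 11.9, 14.1, 12.4 and 11.8 CPM in non-irradiated libraries (−0.64, SE 0.10, adjusted p = 0.00125). Neither gene overlapped between groups, and both calls held in all 18 alternatives. Hist1h3h averaged 4.58 ± 0.589 CPM in irradiated and 6.27 ± 0.550 CPM in non-irradiated libraries (−0.45, adjusted p = 0.0194, and up to 0.0672 without irradiated III or IV). Hist1h3f averaged 21.6 ± 2.96 CPM in irradiated and 27.4 ± 2.16 CPM in non-irradiated libraries (−0.34, adjusted p = 0.0317), and its call held in 3 of the 8 analyses that left out a library and was lost without irradiated I and II (adjusted p = 0.27).

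Hist1h3e differed between libraries of the irradiated group. It had 17.6, 20.2, 28.0 and 27.3 CPM in irradiated libraries against 27.4, 25.0, 25.0 and 21.8 CPM in non-irradiated libraries. Irradiated I and II were below the non-irradiated range and irradiated III and IV at or near its top (−0.09, adjusted p = 0.729), and the log2 fold change without those 2 libraries was 0.16. Log2 fold changes of the other uncalled H3 genes were −0.45 for Hist1h3g, −0.33 for Hist1h3a, −0.25 for Hist1h3d, −0.16 for Hist2h3c2 and −0.09 for Hist1h3i, with adjusted p between 0.113 and 0.793.

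All 11 tested H4 genes fell, with log2 fold changes from −0.76 to −0.31. Hist1h4d (chr13:23581598-23582735), the H4 gene with the most counts, had 138, 132, 158 and 130 CPM in irradiated libraries against 195, 175, 206 and 178 CPM in non-irradiated libraries, without overlap (−0.43, SE 0.07, adjusted p = 0.00107). Hist1h4c had 69.6, 72.3, 91.8 and 79.6 CPM in irradiated libraries against 98.4, 103, 111 and 91.6 CPM in non-irradiated libraries (−0.37, SE 0.08, adjusted p = 0.0132), where irradiated III just passed the lowest non-irradiated value. Hist1h4h had 40.7, 47.4, 54.8 and 41.5 CPM in irradiated libraries against 72.2, 53.4, 74.9 and 56.4 CPM in non-irradiated libraries (−0.48, SE 0.11, adjusted p = 0.0206), again with 1 library in overlap.

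The 4 largest H4 falls were those of Hist1h4k, Hist1h4j, Hist1h4f and Hist1h4a. Hist1h4k had 6.91, 7.53, 10.0 and 8.07 CPM in irradiated libraries against 13.7, 14.3, 14.1 and 12.9 CPM in non-irradiated libraries (−0.76, SE 0.10, adjusted p = 0.000357). Hist1h4j averaged 5.36 ± 0.733 CPM in irradiated and 8.54 ± 0.919 CPM in non-irradiated libraries (−0.67), Hist1h4f 9.84 ± 0.805 CPM in irradiated and 15.0 ± 0.901 CPM in non-irradiated libraries (−0.61), and Hist1h4a 7.30 ± 0.614 CPM in irradiated and 10.9 ± 1.02 CPM in non-irradiated libraries (−0.58). Hist1h4b averaged 17.2 ± 1.26 CPM in irradiated and 24.2 ± 3.27 CPM in non-irradiated libraries (−0.49). The calls of these 5 genes and of Hist1h4d held in all 18 alternatives.

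Calls of some other H4 genes were lost under alternatives. Hist4h4 (chr6:136801553-136804415), the sole member of its cluster, averaged 30.2 ± 3.96 CPM in irradiated and 37.5 ± 2.56 CPM in non-irradiated libraries (−0.31, adjusted p = 0.0363, and up to 0.309 over the alternatives). Hist1h4i averaged 8.91 ± 1.03 CPM in irradiated and 11.3 ± 0.768 CPM in non-irradiated libraries (−0.33, adjusted p = 0.0359, and up to 0.158). Hist2h4 averaged 18.9 ± 1.83 CPM in irradiated and 25.9 ± 4.60 CPM in non-irradiated libraries (−0.45, adjusted p = 0.0206, and up to 0.193). The call of Hist1h4h held in 4 of the 8 analyses that left out a library. Without irradiated I and II, the calls of Hist1h4c, Hist1h4h, Hist1h4i, Hist2h4 and Hist4h4 were all lost.

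**Figure D3:**
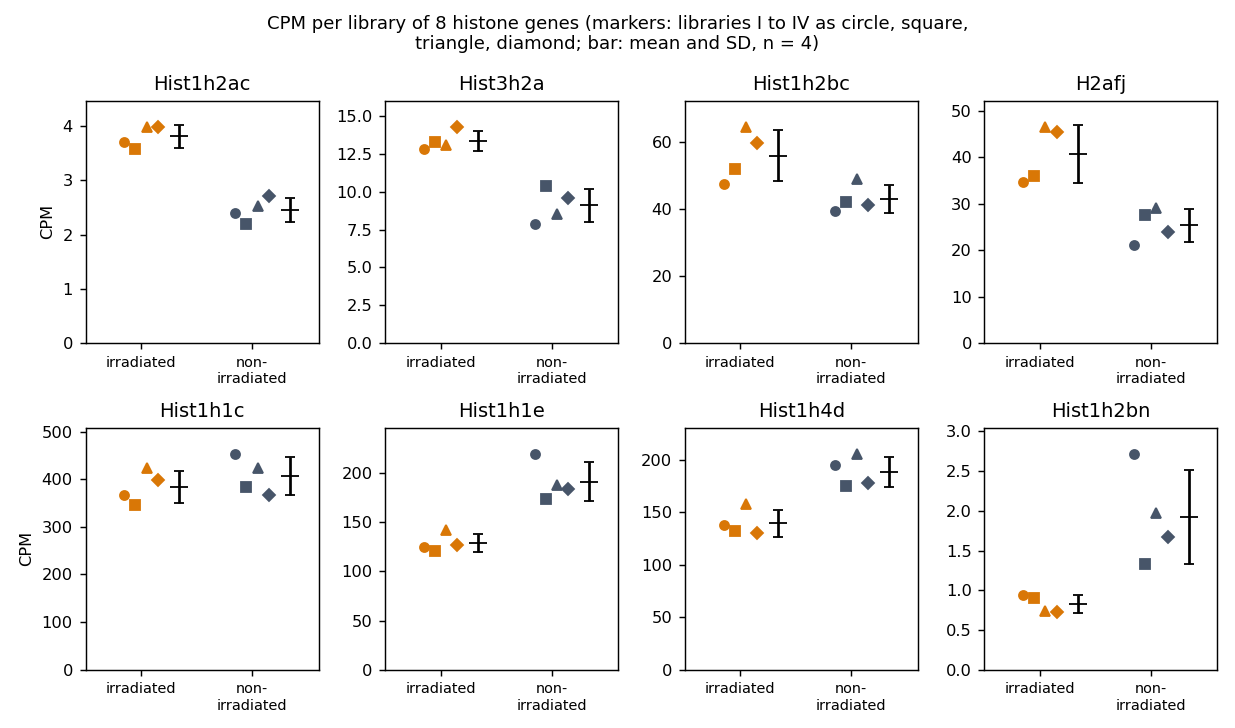
CPM per library of 8 histone genes, irradiated on the left and non-irradiated on the right of each panel, with the mean and SD of 4 as the bar. Hist1h2ac, Hist3h2a and H2afj are higher in every irradiated library, Hist1h2bc and Hist1h1c overlap, and Hist1h1e, Hist1h4d and Hist1h2bn are lower in every irradiated library.

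Levels can be set against each other only per length of annotated exon. On that scale Hist1h1c led the family at 246 CPM per kb in irradiated and 261 CPM per kb in non-irradiated libraries. Hist1h4d followed at 122 CPM per kb in irradiated and 166 CPM per kb in non-irradiated libraries, then Hist1h4h at 98.1 and Hist1h4c at 95.5 CPM per kb in irradiated libraries, against 137 and 123 CPM per kb in non-irradiated libraries. Hist1h2bc led H2B in irradiated libraries at 48.3 CPM per kb, against 37.0 CPM per kb in non-irradiated libraries, whereas Hist1h2bb, at 30.6 CPM per kb in irradiated libraries, led it in non-irradiated libraries at 40.3 CPM per kb. Hist3h2a stood at 6.24 CPM per kb in irradiated and 4.24 CPM per kb in non-irradiated libraries, and Hist1h2ab, the H2A gene with the highest level per length, at 10.9 CPM per kb in irradiated and 14.7 CPM per kb in non-irradiated libraries.

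The 22 members that were not tested comprised 1 H1, 11 H2A, 6 H2B, 2 H3 and 2 H4 genes, and 9 of them had no count in any library. The highest of each class were Hist1h1t with 23 counts over the 8 libraries, Hist1h2ai with 48, the pseudogene Hist3h2bb-ps with 49 and Hist1h4m with 52, whereas both untested H3 genes, Hist2h3b and Hist2h3c1, were at 0. A count of 0 in a library allows up to 3 counts, or 0.0807 to 0.104 CPM, which covers counting error only. Of the 50-base windows in the annotated transcripts of the 9 genes at 0, 88.7% to 100% also occurred in other genes, on either strand. For the tested members the median was 45.0% and the highest 94.0%. These shares include genes annotated over the same bases, and so are not a measure of near-identical copies alone. With windows found in other members only, Hist2h2bb went from 100% to 0%, Hist2h3c1 from 100% to 34.7% and Hist3h2a from 31.5% to 2%. How reads with several matches were counted is not given in the sources used here, so values of near-identical members are uncertain at the level of the single gene.

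The summed CPM of clusters and blocks differed in size of change. On chromosome 13 the Hist1 genes fell into a block of 19 members at chr13:21715763-21837530, a block of 5 at chr13:22035164-22043676 and a block of 31 at chr13:23531050-23934851, with Hist1h2al apart from them. The first block summed to 53.2 ± 4.16 CPM in irradiated and 77.4 ± 1.91 CPM in non-irradiated libraries (log2 ratio −0.54), and held 6 of the genes that fell and none that rose. The second summed to 24.0 ± 2.25 CPM in irradiated and 30.8 ± 1.43 CPM in non-irradiated libraries (−0.36). The third, which holds most of the family's CPM, summed to 1100 ± 97.7 CPM in irradiated and 1333 ± 82.9 CPM in non-irradiated libraries (−0.28), and held 14 genes that fell beside Hist1h2ac and Hist1h2bc. Hist1h1c, which was not called, supplied 384 CPM of that sum in irradiated and 406 CPM in non-irradiated libraries. By gene, the median log2 fold change of tested members was −0.56 in the first block, −0.33 in the second and −0.37 in the third. In all 3 blocks every irradiated library was below every non-irradiated one, and the difference between blocks was not tested.

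**Figure D4:**
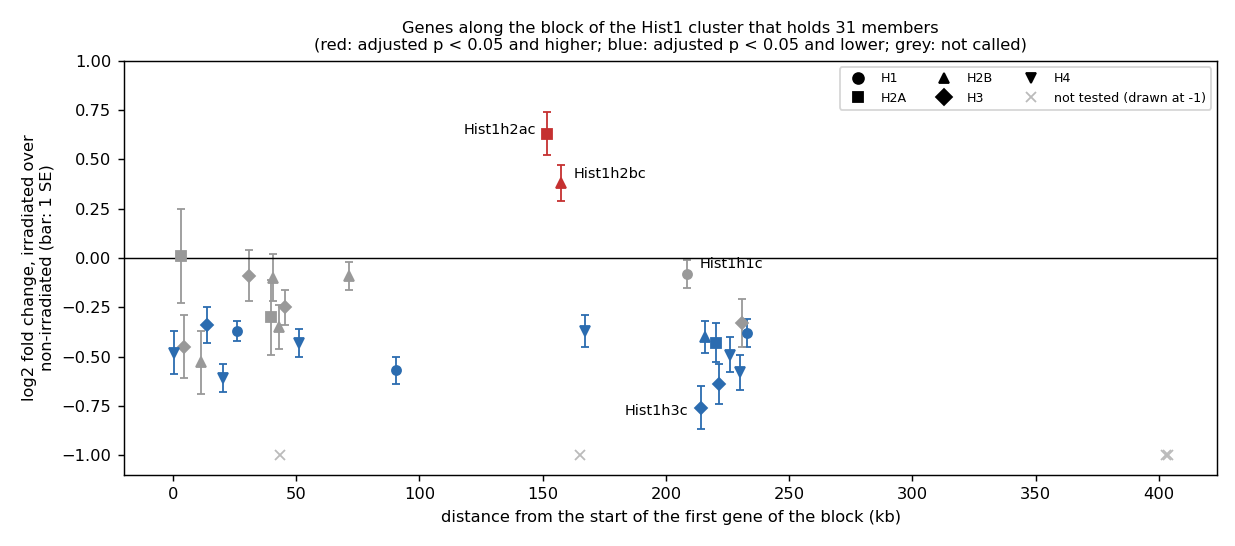
Log2 fold change (bar, 1 SE) of the members of the block of 31 against distance in kb from the start of its first gene, with the class as the marker shape and crosses for members not tested. Hist1h2ac and Hist1h2bc stand side by side above 0, with called and lower genes on both sides of them.

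Outside chromosome 13, the Hist2 sum was 25.8 ± 2.38 CPM in irradiated and 33.8 ± 4.79 CPM in non-irradiated libraries (log2 ratio −0.39, no overlap), and Hist2h4 supplied most of it. The Hist3 sum was 13.5 ± 0.626 CPM in irradiated and 9.32 ± 1.13 CPM in non-irradiated libraries (log2 ratio 0.54), nearly all of it from Hist3h2a. Hist1h2ac and Hist1h2bc lie head to head with 250 bases between their annotated starts. Of the 14 such H2A and H2B pairs, with 172 to 305 bases between them, 5 had both genes tested, and this was the 1 in which both were called higher; none had both called lower.

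Promoters are printed for the H2A genes that rose, Hist1h2ac (chr13:23683910-23684209, minus strand) and Hist3h2a (chr11:58954435-58954734, plus strand), and for Hist1h2bm (chr13:21721794-21722093, plus strand), an H2B gene that fell, because all 3 carry the octamer. They come from RefSeq on GRCm38.p6 and run 5′ to 3′ from 250 bases before to 50 bases after the start. Capitals mark CCAAT, the octamer ATTTGCAT and TATAAA on either strand. The Hist1h2ac stretch spans the whole space up to the annotated start of Hist1h2bc.
Hist1h2ac: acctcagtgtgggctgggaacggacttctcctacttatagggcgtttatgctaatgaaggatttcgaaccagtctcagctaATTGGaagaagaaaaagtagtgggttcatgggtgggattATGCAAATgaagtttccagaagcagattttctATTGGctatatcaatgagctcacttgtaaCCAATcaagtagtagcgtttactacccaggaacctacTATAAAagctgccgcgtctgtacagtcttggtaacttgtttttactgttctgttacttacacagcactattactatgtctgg
Hist3h2a: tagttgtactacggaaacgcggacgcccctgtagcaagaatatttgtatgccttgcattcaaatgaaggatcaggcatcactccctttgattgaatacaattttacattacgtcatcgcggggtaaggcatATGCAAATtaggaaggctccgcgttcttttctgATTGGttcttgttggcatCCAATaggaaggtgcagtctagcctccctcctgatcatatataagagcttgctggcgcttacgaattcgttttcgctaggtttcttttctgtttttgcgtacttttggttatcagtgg
Hist1h2bm: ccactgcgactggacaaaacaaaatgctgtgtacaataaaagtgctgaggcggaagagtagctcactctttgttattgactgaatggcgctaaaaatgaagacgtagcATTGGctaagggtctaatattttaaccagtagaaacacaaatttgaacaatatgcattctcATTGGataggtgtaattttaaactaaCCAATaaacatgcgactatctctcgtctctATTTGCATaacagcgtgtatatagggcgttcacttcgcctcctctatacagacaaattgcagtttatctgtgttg
The octamer, a motif bound by POU-domain factors, stood in 13 of the 62 members with a promoter in the table (21%), beside 1.74% of all 32851 promoters of the same length. All 13 were H2A or H2B genes. CCAAT was in 85.5% of member promoters beside 37.4% of all, in every H1, H2A, H2B and H3 promoter and in 3 of 12 H4 promoters. TATAAA was in 56.5% of member promoters beside 13.6% of all. Genes that rose and genes that fell both held the octamer, with 2 of 2 and 4 of 22 promoters. The 22 include H1, H3 and H4 genes, none of which held it. Of the H2A and H2B genes that fell, Hist1h2ab, Hist1h2bb, Hist1h2bk and Hist1h2bm held it, and Hist1h2bn did not. Hist1h2bc, which also rose, had no promoter entry of its own. A match is a description of the letters in this window.

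The annotated length past the stem-loop varied from 3 to 4884 bases. Of the 22 members with at least 100 annotated bases after the stem-loop, 19 were tested, and 9 fell, 2 rose and 8 were not called, with a median log2 fold change of −0.31. Of the 21 members with fewer, 13 were tested, and 9 fell, none rose and 4 were not called, with a median of −0.43. Hist1h2ac, with 2010 annotated bases after its stem-loop, and Hist3h2a, with 1643, were among the longest, but Hist1h1d with 4884 and Hist4h4 with 2445 were longer and fell. Hist1h2bc, whose annotated transcript has 2 exons, had no match to the stem-loop pattern in its annotated 3′ UTR, and its intron was not searched. Its group, the 24 coding members without a match, had 16 tested, of which 6 fell and 1 rose, with a median of −0.37. Of those 24, 13 had no annotated 3′ UTR at all.

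**Figure D5:**
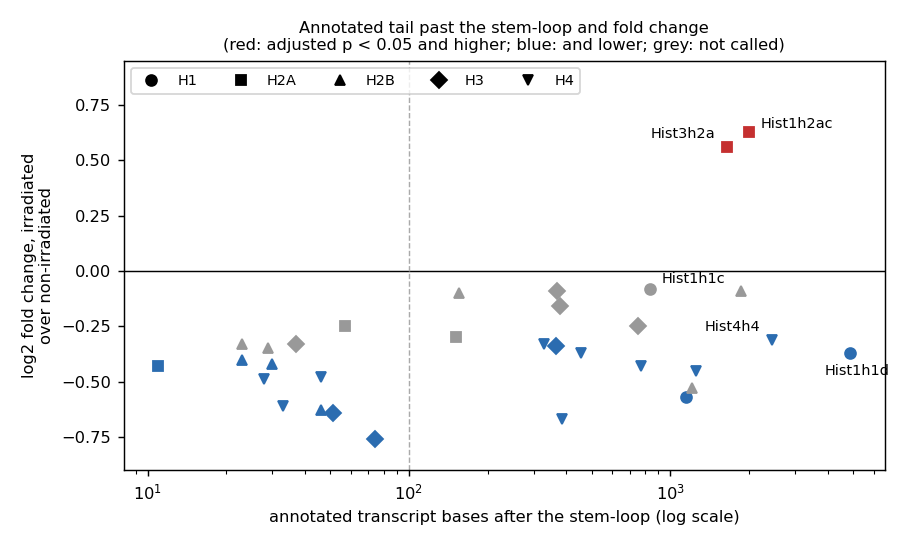
Log2 fold change of the 32 tested members with a stem-loop against the annotated transcript bases that follow it (log axis, dashed line at 100 bases), with the class as the marker shape. Hist1h2ac and Hist3h2a are the points above 0, and longer and shorter tails both hold genes that fell.

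Replication-independent histone variants replace the S-phase histones outside replication. Of 11 tested, 1 rose, 1 fell and 9 were not called, beside 2.59% of all genes called higher and 4.15% called lower, and their median log2 fold change was 0.02. H2afj, which encodes H2A.J, a variant known to accumulate in senescent human fibroblasts, had 34.6, 35.9, 46.6 and 45.5 CPM in irradiated libraries against 21, 27.5, 29 and 24.0 CPM in non-irradiated libraries. All irradiated libraries were higher (0.68, SE 0.11, adjusted p = 0.00192). Cenpa, the centromeric H3 variant, averaged 14.3 ± 0.876 CPM in irradiated and 21.3 ± 1.88 CPM in non-irradiated libraries (−0.57, SE 0.07, adjusted p = 0.000284).

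H2afx, whose product is phosphorylated at DNA breaks, had 12.4, 12.6, 19.4 and 18.0 CPM in irradiated libraries against 13.3, 12.9, 15.4 and 12.3 CPM in non-irradiated libraries. Irradiated III and IV were above the non-irradiated range and irradiated I and II were not (0.21, adjusted p = 0.414, and 0.47 with adjusted p = 0.0138 without irradiated I and II). H3f3b, which encodes the replacement histone H3.3, averaged 474 ± 14.5 CPM in irradiated and 462 ± 14.4 CPM in non-irradiated libraries (0.04). H1f0, the replacement linker histone, averaged 266 ± 10.4 CPM in irradiated and 261 ± 4.08 CPM in non-irradiated libraries (0.03), and neither H2afz (−0.07) nor H3f3a (0.02) was called.

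Genes for histone mRNA transcription and 3′ processing were, like most genes tested, for the most part not called. Of 37 tested, 1 fell and none rose, beside 4.15% of all genes called lower and 2.59% called higher. The median log2 fold change of these genes was −0.01. Slbp, the stem-loop binding protein, averaged 50 ± 3.32 CPM in irradiated and 50.1 ± 2.94 CPM in non-irradiated libraries. Npat, the coactivator of histone gene transcription, averaged 83.6 ± 2.63 CPM in irradiated and 85.8 ± 3.14 CPM in non-irradiated libraries (−0.04). The 1 that fell was Cstf2, a cleavage stimulation factor subunit (−0.15, adjusted p = 0.0419), and that call was lost in 11 of 18 alternatives. Yy1, a transcription factor, had a log2 fold change of 0.14 (adjusted p = 0.0742), and Upf1, a helicase of mRNA decay, of 0.08 (adjusted p = 0.265).

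Histone chaperones and chromatin assembly genes included 8 that fell among 30 tested and none that rose. Over all genes tested, 4.15% were called lower and 2.59% higher. The median log2 fold change of the list was −0.06. Chaf1a, the large subunit of the assembly factor CAF-1 that deposits H3 and H4 at replication forks, averaged 18.4 ± 0.820 CPM in irradiated and 23.9 ± 1.19 CPM in non-irradiated libraries (−0.38, adjusted p = 0.000942). Mcm2, a helicase subunit that also binds H3 and H4, averaged 94.9 ± 3.07 CPM in irradiated and 116 ± 4.14 CPM in non-irradiated libraries (−0.30, adjusted p = 0.000544). The other 6, chosen for mention after their values were seen, were Asf1b (−0.47), Tonsl (−0.41), Mms22l (−0.37), Pcna (−0.34), Hat1 (−0.29) and Chaf1b (−0.23). Atrx, a chromatin remodeller that works with the H3.3 chaperone Daxx, was not called (0.03).

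Genes used as markers of cycling cells also fell. Mki67, a proliferation marker, had 56.4, 61.8, 56.7 and 57.9 CPM in irradiated libraries against 97.0, 118, 88.1 and 116 CPM in non-irradiated libraries (−0.85, SE 0.08, adjusted p = 3.93e-05). Mcm3, a subunit of the replicative helicase, averaged 34.6 ± 1.29 CPM in irradiated and 52.4 ± 1.45 CPM in non-irradiated libraries (−0.60, adjusted p = 5.18e-06). Top2a, a topoisomerase of dividing cells, averaged 101 ± 1.74 CPM in irradiated and 149 ± 18.5 CPM in non-irradiated libraries (−0.55, adjusted p = 0.000298). None of the 3 overlapped between groups, and the part of cell cycle in the histone values was not tested.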

How the data were processed

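Polyadenylated RNA, per the labels, was sequenced in 8 libraries. The authors deposited unnormalized counts, whole numbers of reads for each Ensembl gene, in 1 file per library. The tools named in the submitters' processing notes are featureCounts 1.5.0-p1, STAR 2.5.2a and bcl2fastq 2.20.0.422, and the build is mm10. The annotation release, strand setting and treatment of multiply mapped reads were not given in the sources used here. GENCODE M21 gave a symbol to 55480 of 55573 identifiers, and the 93 others held 0.000431% of counts.

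Counts were tested with edgeR 4.0.16 (R 4.3.3): TMM factors, filterByExpr (minimum count 10, minimum total 15), a quasi-likelihood fit over the 8 libraries whose only term was the group, and Benjamini-Hochberg adjustment over 15259 genes, with calls at an adjusted p under 0.05. CPM use the TMM factors, except mitochondrial rRNA, which is scaled to total counts. Class sums carry no test. Independence of the samples is not described beyond the word itself, so p-values measure their spread only, and that may be technical. On simulated counts for this comparison, with 15067 genes tested, the fit recovered 62% of genes changed 1.3-fold and 76% at 1.5-fold, and called 6 unchanged genes. Simulated libraries varied independently, without the closeness of irradiated I to II and of III to IV. These rates may therefore not hold for the real libraries.

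The members, the gene lists and the tests were chosen with earlier results of these data known. The text names every tested member, the highest untested member of each class, from each list the 2 genes of smallest adjusted p plus the remaining gene of highest CPM, and a fixed set of 10 genes. No pair of libraries within a group agreed within counting noise (chi-square per degree of freedom at least 4.65). Irradiated I and II (4.93) and irradiated III and IV (4.65) were close to each other, against 14.2 to 24.4 between these pairs. Non-irradiated pairs ran from 4.78 to 12.4. The SDs and p-values treat the irradiated libraries as 4 separate samples, and the source of this split was not tested. Stem-loops and overlaps were read from GENCODE M21. Promoters came from RefSeq, matched by gene identifier, chromosome and strand, with the entry nearest the annotated start used. Alternatives were RLE, upper-quartile and total-count scaling, DESeq2 1.42.0, limma-voom (limma 3.58.1), 2 other filters, the replicate numeral as a block, each library left out and a threshold of 0.01. Leaving out irradiated I and II together and removing GC and length trends (loess, span 0.5) were added after seeing the data.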

Additional observations from a re-analysis of the deposited data

Results flagged for a closer look

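Within groups of 4, 4 of the 164 groups of values examined held a library far from the other 3 by Dixon's test, which chance does in about 1 of 20 groups. Hist1h1d stood at 106 CPM in non-irradiated II, and at 98.2 to 99.2 CPM in the other non-irradiated libraries. Hist1h4a stood at 9.41 CPM in non-irradiated IV, and at 11.3 to 11.6 CPM in the others of that group. The summed CPM of class H4 was 424 in irradiated III, and 347 to 358 in the other irradiated libraries. The summed CPM of H1 genes other than Hist1h1c was 359 in non-irradiated I, and 323 to 325 in the other non-irradiated libraries.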

How the results depend on the processing

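Of 853 values of single members under the alternatives, 780 kept their direction and side of the threshold, 48 were no longer called, 15 became called and 10 changed sign. Another scaling moved the median of all genes by at most 0.01 on the log2 scale. The members called lower numbered 17 to 24 with 1 library left out, 14 without irradiated I and II, and 15 at an adjusted p under 0.01. The calls over all genes numbered 221 to 402 higher and 415 to 611 lower with 1 library left out, 648 higher without the filter, 140 higher and 296 lower at an adjusted p under 0.01, and 295 lower without irradiated I and II.

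Without irradiated I and II, the log2 ratio of the sums was 0.19 for H2A, −0.16 for H3 and −0.16 for Hist4. In that setting 2 variant genes, 1 processing gene and 1 assembly gene were called higher, and 0 processing and 4 assembly genes lower. DESeq2, no filter and the replicate block each called 1 processing and 1 assembly gene higher, as did removal of GC and length trends for 1 assembly gene. The processing gene called lower was lost (0) with limma-voom, no filter, GC and length trends removed and a threshold of 0.01, and numbered 0 to 1 with a library left out; 5 assembly genes were lower at 0.01. The cause of these shifts was not tested.

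Signs changed for genes not called. Without irradiated I and II the log2 fold change was 0.01 for Hist1h1c, 0.09 for Hist1h2bg, 0.16 for Hist1h3e and 0.02 for H2afz. With GC and length trends removed it was −0.15 for Hist1h2af. With 1 library left out it ran from −0.09 to 0.13 for Hist1h2af, −0.20 to 0.03 for Hist1h2bg, −0.30 to 0.02 for Hist2h2be, −0.20 to 0.02 for Hist1h3e, −0.11 to 0.20 for H3f3a and −0.02 to 0.07 for Atrx.

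Libraries with the same numeral did not deviate together throughout (correlations 0.0248, −0.0332, 0.275 and 0.147), so the numerals were not taken to pair samples. Across different numerals the correlations ran from −0.226 to 0.148, below the value for III. Whether some of the samples were paired was not tested. With the replicate block, 27 members were called lower and 3 higher, and 802 genes lower and 550 higher overall.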

Other observations

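In the Hist2 cluster, 5 members were counted at 0 in all 8 libraries while every base of their exons also lay in exons of another annotated gene. They were Hist2h2aa1, Hist2h2aa2, Hist2h3b, Hist2h2bb and Hist2h3c1. Gm20632, which covers Hist2h2aa2, averaged 1.97 ± 0.225 CPM in irradiated and 1.49 ± 0.259 CPM in non-irradiated libraries (SD, n = 4; edgeR adjusted p = 0.156). Gm20633, which covers Hist2h2aa1, averaged 1.72 ± 0.373 CPM in irradiated and 1.92 ± 0.445 CPM in non-irradiated libraries (adjusted p = 0.700). Gm20628, which covers Hist2h3b and Hist2h2bb, averaged 0.418 ± 0.105 CPM in irradiated and 0.481 ± 0.105 CPM in non-irradiated libraries (adjusted p = 0.704). Hist2h3c1 is covered by Gm20634, which was itself at 0 counts in all 8 libraries. Whether these counts include histone reads was not tested.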
